A study of Homo sapiens with 12 samples.

Results

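The genes described here are CD24 and 7 other genes used as markers of tumour stem cells: PROM1 (CD133), ALDH1A1, ALDH1A3, KLF4, NES (nestin), CXCR4 and SOX2. They were chosen by symbol, by matching the Ensembl identifiers of the expression table to these names, and all 8 were found among its 16299 genes. The members, and the gene lists used below, were chosen with earlier results of these data known. Counts of them set beside the share of all genes therefore describe and do not test. Messenger RNA was sequenced after poly-A capture in 12 libraries of PANC1 and BXPC3, 2 established human lines of pancreatic cancer. Each line was embedded in 7.5% gelatin methacryloyl (GelMA, gelatin carrying groups that allow it to be cross-linked), in 5% GelMA or in collagen, with 2 libraries in each of the 6 groups. All groups shared high glucose DMEM with foetal bovine serum and penicillin/streptomycin as the growth medium, and the labels give no drug or genetic change. The labels name a single cell line per group and no added cell type. They state neither gel stiffness, nor culture time, nor whether replicates came from separate cultures, so the p-values reflect the scatter of these libraries, possibly a technical one.

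Tumour stem cells are tumour cells held able to renew themselves and to seed new tumours, and in pancreatic cancer they have been enriched by surface proteins or by aldehyde dehydrogenase activity. CD24 is a short, heavily glycosylated protein anchored in the outer membrane, used together with CD44 and EPCAM to sort such cells. PROM1 and CXCR4 are surface markers too, ALDH1A1 and ALDH1A3 oxidize retinaldehyde to retinoic acid, SOX2 and KLF4 are transcription factors of pluripotent cells, and nestin is an intermediate filament protein of progenitor cells.

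Sequences upstream of CD24, SOX2 and ALDH1A1 are printed because these are members whose RNA differed stepwise between the 3 gels in PANC1. Each runs 5′ to 3′ over 240 bases, from 250 to 11 bases before the gene's start in RefSeq, on GRCh38.p14. Capitals mark the GC box, GGGCGG or its reverse complement CCGCCC.
CD24, chr6:106975638-106975877, minus strand: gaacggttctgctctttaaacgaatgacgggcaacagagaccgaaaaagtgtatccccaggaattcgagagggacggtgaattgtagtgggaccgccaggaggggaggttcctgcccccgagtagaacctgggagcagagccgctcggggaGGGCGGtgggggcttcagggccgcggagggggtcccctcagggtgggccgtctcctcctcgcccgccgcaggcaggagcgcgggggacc
SOX2, chr3:181711675-181711914, plus strand: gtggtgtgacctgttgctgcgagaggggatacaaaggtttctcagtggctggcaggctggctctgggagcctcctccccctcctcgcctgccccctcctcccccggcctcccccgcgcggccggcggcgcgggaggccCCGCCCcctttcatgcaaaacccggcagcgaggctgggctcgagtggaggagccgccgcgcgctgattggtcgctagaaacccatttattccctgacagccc
ALDH1A1, chr9:72953064-72953303, minus strand: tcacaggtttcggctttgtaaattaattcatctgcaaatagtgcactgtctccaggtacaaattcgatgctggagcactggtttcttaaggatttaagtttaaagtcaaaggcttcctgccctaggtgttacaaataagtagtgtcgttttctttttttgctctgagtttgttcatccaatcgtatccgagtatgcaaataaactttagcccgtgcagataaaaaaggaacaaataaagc
The windows of CD24 and SOX2 each held 1 GC box and that of ALDH1A1 held 0, where 41.3% of 34943 such windows held at least 1. Counted on both strands with overlapping matches allowed, the window of ALDH1A3 held 6, KLF4 4, CXCR4 3, NES 2 and PROM1 0. The window of ALDH1A3 overlaps an annotated exon in GENCODE 29 and is not printed. That of ALDH1A1 lies inside the gene's span in GENCODE 29, chr9:72900662-73080442, and is upstream of its RefSeq start only. G and C made up 66.2% of the CD24 window, 69.2% of SOX2, 82.1% of ALDH1A3 and 37.9% of ALDH1A1, against a median of 57.9% over all windows. These matches describe the letters and are no evidence of a bound factor.

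The deposited values are log2 RPKM (read density scaled to gene length and library size), a scale corrected for length, and their sequencing depth is unknown. Summed over 7 epithelial markers, keratin, adhesion and mucin genes, the PANC1 libraries held 4670 to 6840 RPKM and the BXPC3 libraries 7370 to 8790. In PANC1 only KRT8, KRT18 and KRT19 were high, at 9.72 to 11.69 log2 RPKM. There KRT7, EPCAM, CDH1 and MUC1 lay at 1.8 to 4.91 log2 RPKM, against 5.44 to 10.74 in BXPC3. Of 9 immune markers 4 were in the table, summing to 6.65 to 11.6 RPKM in PANC1 and 17.9 to 26.1 in BXPC3. The 3 endothelial markers present, of 5, stayed between 0.228 and 1.42 RPKM in PANC1 and between 2.56 and 4.12 in BXPC3. In PANC1 the 3 fibroblast and stellate markers present, of 8, summed to 358 and 419 RPKM in 7.5% GelMA, 212 and 216 in 5% GelMA, and 91.1 and 93 in collagen. COL1A1, a collagen chain, made up nearly all of that sum, with means of 8.59, 7.74 and 6.51 log2 RPKM in the same order of gels, PDGFRA stayed under 1 RPKM in PANC1, and the other 5 markers were not analysed here. In BXPC3 the same sum was 16.3 to 18.5 RPKM in every library. The part of these markers in the results was not tested.

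Each comparison between groups used limma over the 15794 genes that reached 1 RPKM in 2 or more libraries. A gene is said to be called, or to have risen or fallen, at a Benjamini-Hochberg adjusted p under 0.05 over all genes tested. Differences are of mean log2 RPKM with their standard error (SE), and those of GelMA take the mean of both concentrations (4 libraries) over collagen (2 libraries). Of the 8 members 7 were tested, since PROM1 did not reach the minimum level. In PANC1, 6 of the 7 were called between GelMA and collagen, 3 higher and 3 lower, where 55.1% of all genes were called. Among the lower was ALDH1A1, which stayed under 1 RPKM in PANC1 and passed the minimum level only through BXPC3. In BXPC3, 2 of the 7 were called, both higher, where 36.1% of all genes were called.

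**Figure D1:**
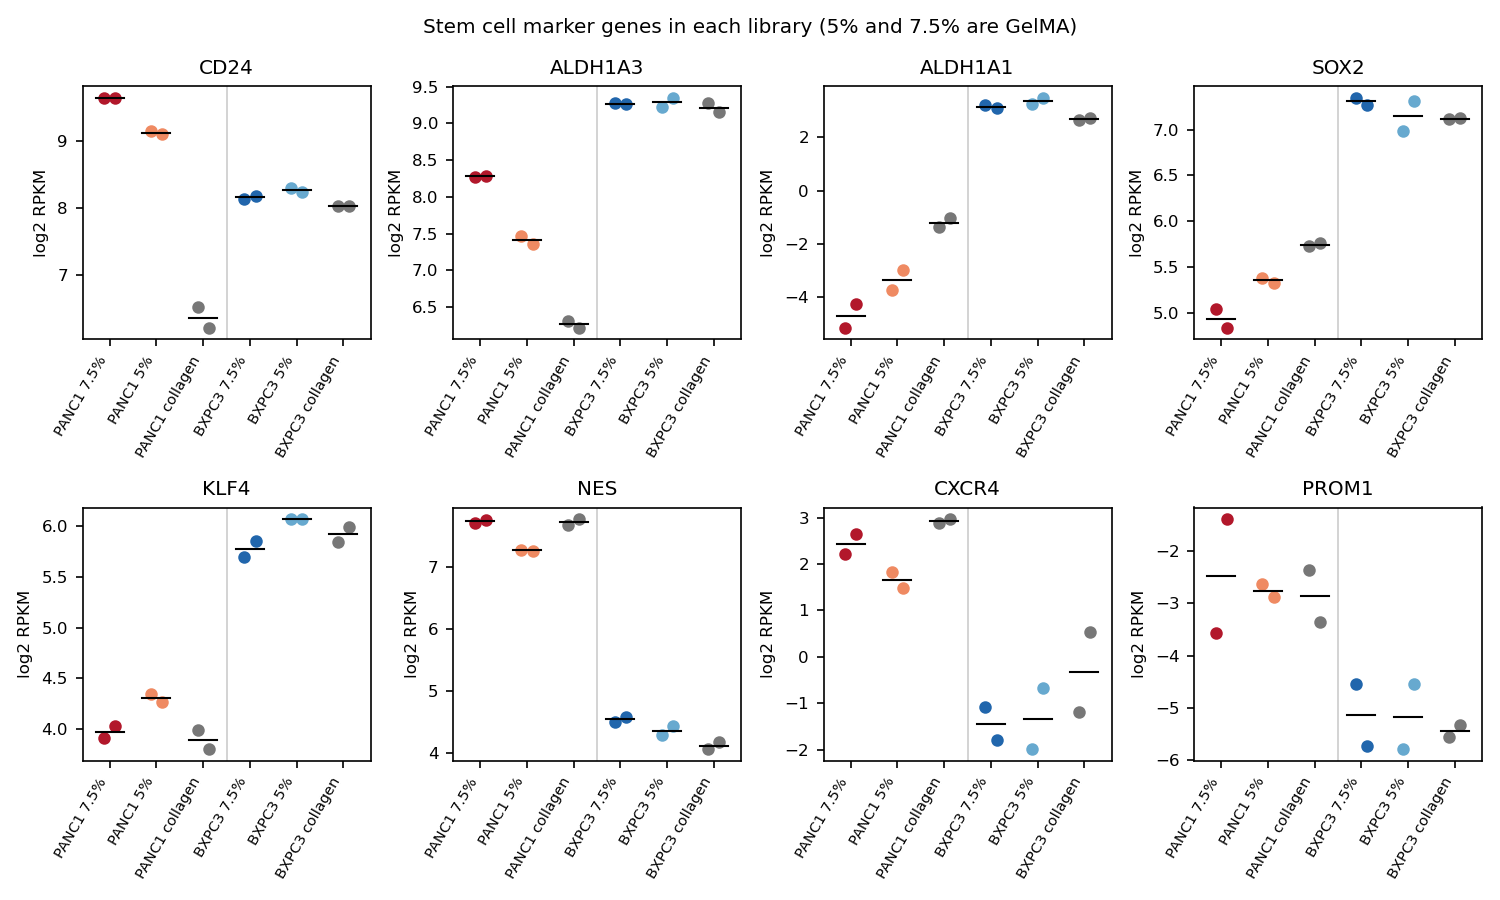
Each panel plots 1 gene as log2 RPKM (y axis, with its own range) in the 12 libraries, grouped on the x axis by line and gel; points are libraries and bars are means of 2. In PANC1 the 4 GelMA libraries of CD24 lie at 9.09 or above and the 2 collagen libraries at 6.52 or below, while all 6 BXPC3 libraries lie between 8.02 and 8.29.

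CD24 (ENSG00000272398, GRCh38 chr6:106969831-106975627, minus strand, protein-coding) was the member with the highest PANC1 level in GelMA and the one that rose most. It held 9.64 and 9.63 log2 RPKM in PANC1 in 7.5% GelMA, 9.14 and 9.09 in 5% GelMA, and 6.52 and 6.22 in collagen. The 3 gels did not overlap, and the order ran from 7.5% GelMA through 5% GelMA down to collagen. In linear terms these group means were 797, 555 and 82.8 RPKM. In BXPC3 the values were 8.14 and 8.18 in 7.5% GelMA, 8.29 and 8.24 in 5% GelMA, and 8.03 and 8.02 in collagen. All BXPC3 libraries thus lay below the PANC1 libraries in GelMA and above those in collagen.

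CD24 rose by 3.01 ± 0.07 log2 (SE) in PANC1 in GelMA over collagen, a fold of 8.03 (limma adjusted p = 1.49e-09, higher in 4 of 4 GelMA libraries). It ranked 20 from the top among the 15794 genes tested in that comparison. In 7.5% over 5% GelMA it rose by a further 0.52 ± 0.08 log2 (limma adjusted p = 0.00131). In BXPC3 the difference between GelMA and collagen was 0.19 ± 0.07 log2 (limma adjusted p = 0.0488). That call ended, with adjusted p-values of 0.0678 to 0.175, on dropping each of the 6 BXPC3 libraries in turn, and when libraries were centred on 10 housekeeping genes (0.04 log2, adjusted p = 0.656). The effect of GelMA in PANC1 exceeded that in BXPC3 by 2.82 ± 0.09 log2 (limma adjusted p = 1.07e-07). GENCODE 29 lists 3 CD24 pseudogenes, of which 0 were in the table, so reads of near-identical copies may have been assigned either way. In these bulk samples, fewer cells carrying a transcript and less of it per cell cannot be told apart.

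CD44 and EPCAM, the surface proteins used with CD24, moved the same way in PANC1 but by less. CD44, the hyaluronan receptor, held 10.30 and 10.39 log2 RPKM in 7.5% GelMA, 10.35 and 10.37 in 5% GelMA, and 9.98 and 9.95 in collagen. It rose by 0.39 ± 0.03 log2 in PANC1 (limma adjusted p = 6.5e-06). EPCAM, an epithelial adhesion protein, held 4.91 and 4.91 log2 RPKM in 7.5% GelMA, 4.66 and 4.68 in 5% GelMA, and 3.86 and 3.72 in collagen. It rose by 1.00 ± 0.06 log2 (limma adjusted p = 4.43e-07). In BXPC3 the differences were 0.12 ± 0.03 for CD44 (limma adjusted p = 0.0186) and 0.09 ± 0.06 for EPCAM (limma adjusted p = 0.27). The CD44 difference in BXPC3 was -0.03 after centring on housekeeping genes.

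ALDH1A3 (ENSG00000184254, chr15:100877714-100916626, plus strand) repeated the stepwise pattern of CD24 in PANC1. It held 8.27 and 8.29 log2 RPKM in 7.5% GelMA, 7.46 and 7.36 in 5% GelMA, and 6.31 and 6.22 in collagen, with no overlap between gels. GelMA over collagen gave a rise of 1.58 ± 0.05 log2, a fold of 2.99 (limma adjusted p = 1.4e-08), and 7.5% over 5% a rise of 0.87 ± 0.06 (limma adjusted p = 1.49e-05). In BXPC3 the 6 libraries lay between 9.15 and 9.35, above every PANC1 library, and the 3 gels overlapped. The BXPC3 difference was 0.07 ± 0.05 log2, with a 95% confidence interval of -0.04 to 0.18 (limma adjusted p = 0.326). An antisense gene within this locus was also in the table, and no source here gives the strand setting, so the reads of the pair may be mixed.

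ALDH1A1 (ENSG00000165092, chr9:72900662-73080442, minus strand) went the other way in PANC1, at levels under 1 RPKM. Its values were -5.14 and -4.25 log2 RPKM in 7.5% GelMA, -3.71 and -2.96 in 5% GelMA, and -1.37 and -1.03 in collagen. The order was thus the reverse of that of ALDH1A3, again without overlap. It fell by 2.81 ± 0.28 log2 in GelMA (limma adjusted p = 2.07e-05), and in 7.5% against 5% GelMA it fell by 1.36 ± 0.33 (limma adjusted p = 0.0177). With 1 added to each RPKM before the log, the difference between GelMA and collagen was -0.42 (adjusted p = 0.00104), still called but far smaller. The concentration call ended on that scale (-0.08, adjusted p = 0.586), and also without the second 5% library or the first 7.5% library (adjusted p = 0.13 and 0.109), and with PANC1 fitted alone (adjusted p = 0.0691). Values this low lie among the 2541 lowest ranks, where the libraries' distributions were not equal and the offset added by the submitters is unknown. In BXPC3 the gene held 3.20 and 3.12 log2 RPKM in 7.5% GelMA, 3.24 and 3.50 in 5% GelMA, and 2.67 and 2.72 in collagen. The GelMA libraries all lay higher, by 0.57 ± 0.28 log2 (limma adjusted p = 0.148), a difference called only with 1 added to each RPKM (0.51, adjusted p = 0.000791) or with the BXPC3 libraries fitted alone (adjusted p = 0.00647).

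ALDH1A3 made up most of the RNA of the 3 retinaldehyde dehydrogenases in every library. Its share of the summed RPKM of ALDH1A1, ALDH1A2 and ALDH1A3 was 98.9% to 99.7% in PANC1 and 96.45% to 97.45% in BXPC3. The sum was 309 and 314 RPKM in PANC1 in 7.5% GelMA, 177 and 165 in 5% GelMA, and 80.3 and 75.2 in collagen. ALDH1A1 contributed at most 0.489 RPKM to any PANC1 library.

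**Figure D2:**
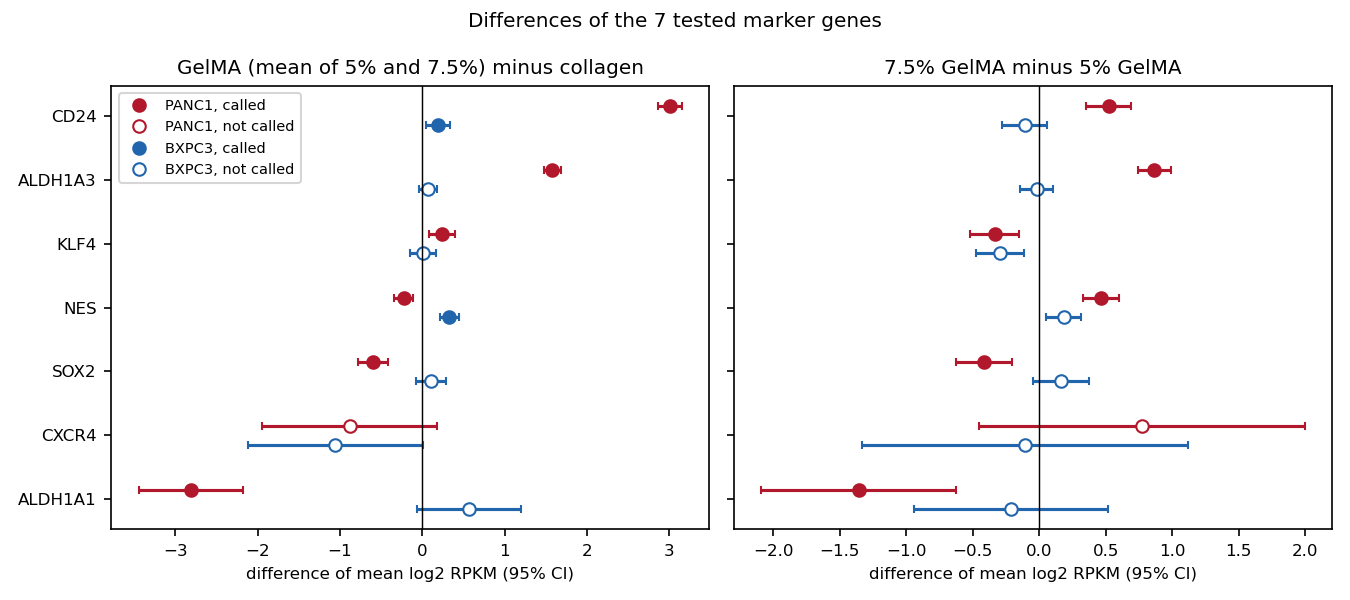
Differences of mean log2 RPKM (x axis) of the 7 tested members, GelMA minus collagen on the left and 7.5% minus 5% GelMA on the right, with PANC1 above BXPC3 for each gene; bars are 95% confidence intervals and filled points were called. CD24 and ALDH1A3 lie far to the right and ALDH1A1 far to the left in PANC1, at 3.01, 1.58 and -2.81.

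SOX2 (ENSG00000181449, chr3:181711924-181714436, plus strand) fell with GelMA and again with its concentration in PANC1. It held 5.04 and 4.83 log2 RPKM in 7.5% GelMA, 5.38 and 5.33 in 5% GelMA, and 5.73 and 5.76 in collagen. The 3 gels did not overlap, and collagen was highest. It fell by 0.60 ± 0.08 log2 in GelMA (limma adjusted p = 0.000152), and 7.5% against 5% gave -0.42 ± 0.09 (limma adjusted p = 0.0125). The concentration call ended without either 5% library or without the second 7.5% library (adjusted p = 0.0531 to 0.101). In BXPC3 the level was 7.35 and 7.27 in 7.5% GelMA, 6.98 and 7.31 in 5% GelMA, and 7.12 and 7.13 in collagen. The 5% libraries straddled the collagen libraries, and the difference of 0.11 ± 0.08 was not called (limma adjusted p = 0.334), except without the first 5% library (0.19, adjusted p = 0.0345). SOX2 lies inside the longer transcript SOX2-OT on the same strand.

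KLF4 (ENSG00000136826, chr9:107484852-107490482, minus strand) was highest in 5% GelMA in both lines. PANC1 held 3.91 and 4.03 log2 RPKM in 7.5% GelMA, 4.34 and 4.26 in 5% GelMA, and 3.99 and 3.80 in collagen. The 7.5% and collagen libraries overlapped, and the 5% libraries stood above both. GelMA over collagen gave 0.24 ± 0.07 log2 (limma adjusted p = 0.0151), which was not called without the second collagen library (0.15, adjusted p = 0.172). From 5% GelMA alone the rise over collagen was 0.41 ± 0.08 (limma adjusted p = 0.00239), and 7.5% against 5% gave -0.34 ± 0.08 (limma adjusted p = 0.0173). The concentration call ended without either 5% library or the first 7.5% library (adjusted p = 0.055 to 0.11). In BXPC3 the values were 5.70 and 5.86 in 7.5% GelMA, 6.07 and 6.07 in 5% GelMA, and 5.85 and 5.99 in collagen. No BXPC3 comparison of KLF4 was called, save 7.5% GelMA against collagen after centring on housekeeping genes (-0.31, adjusted p = 0.00689), and GelMA differed from collagen by 0.00 ± 0.07 log2 (limma adjusted p = 0.971).

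NES (ENSG00000132688, chr1:156668763-156677397, minus strand) showed a dip in 5% GelMA in PANC1. Its values were 7.71 and 7.75 log2 RPKM in 7.5% GelMA, 7.27 and 7.26 in 5% GelMA, and 7.68 and 7.77 in collagen. The 7.5% libraries lay within the range of the collagen libraries (difference 0.01 ± 0.06, limma adjusted p = 0.92), and the 5% libraries lay below them all (-0.46 ± 0.06, limma adjusted p = 0.00018). Over both concentrations it fell by 0.22 ± 0.05 log2 (limma adjusted p = 0.00425), a call that was lost without the second collagen library (-0.18, adjusted p = 0.0536). BXPC3 held 4.50 and 4.58 in 7.5% GelMA, 4.29 and 4.43 in 5% GelMA, and 4.06 and 4.18 in collagen. All 4 GelMA libraries exceeded both collagen libraries, a rise of 0.33 ± 0.05 log2 (limma adjusted p = 0.00099) that was called under every alternative run. The effects differed between the lines by -0.55 ± 0.07 (limma adjusted p = 0.00026).

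CXCR4 (ENSG00000121966, chr2:136114349-136118165, minus strand), the receptor of the chemokine CXCL12, had the widest error of the tested members. PANC1 held 2.21 and 2.64 log2 RPKM in 7.5% GelMA, 1.82 and 1.49 in 5% GelMA, and 2.88 and 2.97 in collagen. All 4 GelMA libraries lay below both collagen libraries. The difference of -0.88 ± 0.48 was not called with the spread shared over all groups (limma adjusted p = 0.141). It was called when PANC1 was fitted alone (adjusted p = 0.00209) and when 1 was added to each RPKM (-0.74, adjusted p = 0.00779). In BXPC3, where the level was near or under 1 RPKM, the libraries spread from -1.99 to 0.54 and the gels overlapped (-1.06 ± 0.48, limma adjusted p = 0.11). Without the first BXPC3 collagen library that difference was -1.93 (adjusted p = 0.0121), and without the second 5% library -1.39 (adjusted p = 0.0459). Without the second BXPC3 collagen library it was -0.19 (adjusted p = 0.801), and without the first 5% library -0.73 (adjusted p = 0.257), so its size rests on single libraries.

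PROM1 (ENSG00000007062, chr4:15963076-16084378, minus strand) was near the bottom of the table in every group. Its values ran from -3.56 to -1.39 log2 RPKM in PANC1 and from -5.79 to -4.54 in BXPC3, and the gels overlapped within PANC1. It was not tested in the main model. With no minimum level the GelMA difference was 0.24 ± 0.63 log2 in PANC1 (limma adjusted p = 0.765) and 0.29 ± 0.63 in BXPC3 (limma adjusted p = 0.763).

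Between the concentrations, 6 of the 7 members were called in PANC1 (3 higher and 3 lower in 7.5%), where 18.7% of all genes were called. In BXPC3 0 of the 7 were called by limma, against 0.0823% of all genes, and this count was 0 under every alternative. At an unadjusted p under 0.05 there were 2, KLF4 with -0.29 ± 0.08 and NES with 0.18 ± 0.06 log2. In PANC1, 5% GelMA against collagen gave 6 called members (46.2% of all genes), and 7.5% GelMA against collagen gave 4 (53.8%). In BXPC3 5% GelMA gave 2 (29.9%) and 7.5% GelMA gave 1 (29.8%). These comparisons within a line share its 2 collagen libraries. Each PANC1 count here includes ALDH1A1, which passed the minimum level only through BXPC3. CD24 differed from collagen by 3.27 ± 0.08 log2 in 7.5% and 2.74 ± 0.08 in 5% GelMA in PANC1, and ALDH1A3 by 2.01 ± 0.06 and 1.15 ± 0.06. ALDH1A1 gave -3.49 ± 0.33 and -2.13 ± 0.33, and SOX2 -0.81 ± 0.09 and -0.39 ± 0.09, in the same order of gels. With 1 added to each RPKM, the ALDH1A1 differences were -0.47 and -0.38, both still called.

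The GelMA effect differed between PANC1 and BXPC3 for 5 of the 7 members, where 39.1% of all genes differed. The 5 were CD24 (2.82), ALDH1A3 (1.51), NES (-0.55), SOX2 (-0.71) and ALDH1A1 (-3.38), each as the log2 effect in PANC1 minus that in BXPC3. The ALDH1A1 difference was -0.93 with 1 added to each RPKM, still called. ALDH1A1 passed the minimum level only through BXPC3, so its place in this count carries no support. For KLF4 the difference was 0.24 ± 0.10 (limma adjusted p = 0.0869), which was called after centring on housekeeping genes (0.35, adjusted p = 0.00859) and without the first PANC1 collagen library (0.33, adjusted p = 0.0352). For CXCR4 the difference was 0.18 ± 0.67 with an interval of -1.33 to 1.68. The effect of concentration differed for 3 of the 7, where 8.97% of all genes differed: ALDH1A3 by 0.89 ± 0.08, CD24 by 0.63 ± 0.11 and SOX2 by -0.58 ± 0.13 log2.

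The levels also set the lines apart. Between PANC1 and BXPC3 7 of the 7 tested members were called over all gels, where 91.8% of all genes were called, and 7 in collagen alone, where 86.2% were. ALDH1A1 passed the minimum level only through BXPC3, and CXCR4 only through PANC1, so those counts carry no support. NES held 7.26 to 7.77 log2 RPKM in PANC1 and 4.06 to 4.58 in BXPC3, and CXCR4 1.49 to 2.97 in PANC1 and -1.99 to 0.54 in BXPC3. SOX2 ran from 4.83 to 5.76 in PANC1 and from 6.98 to 7.35 in BXPC3, and KLF4 from 3.80 to 4.34 in PANC1 and from 5.70 to 6.07 in BXPC3. None of these 4 overlapped between the lines. CD24 was the exception: its order was PANC1 in 7.5% and 5% GelMA, then BXPC3 in 5% GelMA, 7.5% GelMA and collagen, and last PANC1 in collagen, with no neighbours overlapping. PANC1 exceeded BXPC3 by 0.22 ± 0.04 log2 over all gels (limma adjusted p = 0.000568), which turned to -0.17 (adjusted p = 0.00237) when libraries were centred on housekeeping genes, and in collagen the difference was -1.66 ± 0.08 (limma adjusted p = 6.29e-09).

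Other surface markers of tumour stem cells divided in both directions. Of 22 tested, 6 rose and 5 fell in PANC1, where 27.7% of all genes rose and 27.4% fell, with a median of 0.13 log2 against -0.01 over all genes. TSPAN8, a tetraspanin, rose by 2.15 ± 0.17 log2, and LGR5, a receptor of R-spondins and marker of intestinal stem cells, by 2.03 ± 0.45. At the low end ALCAM, an adhesion protein, gave -1.33 ± 0.06 and CEACAM6, another adhesion protein, -0.97 ± 0.17. CEACAM6 lay between -2.83 and -1.13 log2 RPKM in PANC1 and passed the minimum level only through BXPC3, so its place among the 5 carries no support. In BXPC3 4 rose and 7 fell, where 19.4% of all genes rose and 16.7% fell, with a median of -0.09 against 0.01 over all genes. Centring on housekeeping genes, which lowers every BXPC3 difference between GelMA and collagen by 0.15 log2 and every PANC1 one by 0.03, gave 1 and 9 in BXPC3. L1CAM, a neural adhesion protein, rose by 0.70 ± 0.13 and ABCG2, a drug efflux pump, by 0.42 ± 0.15 in BXPC3, the second of which was not called after centring (adjusted p = 0.151). ENG, a co-receptor of the TGF-beta family, gave -1.06 ± 0.12 and NGFR, a neurotrophin receptor, -1.10 ± 0.12. In PANC1 ENG also fell, with -0.53 ± 0.12. The BXPC3 libraries of ENG, L1CAM and ABCG2 lay between -1.16 and 1.05 log2 RPKM.

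**Figure D3:**
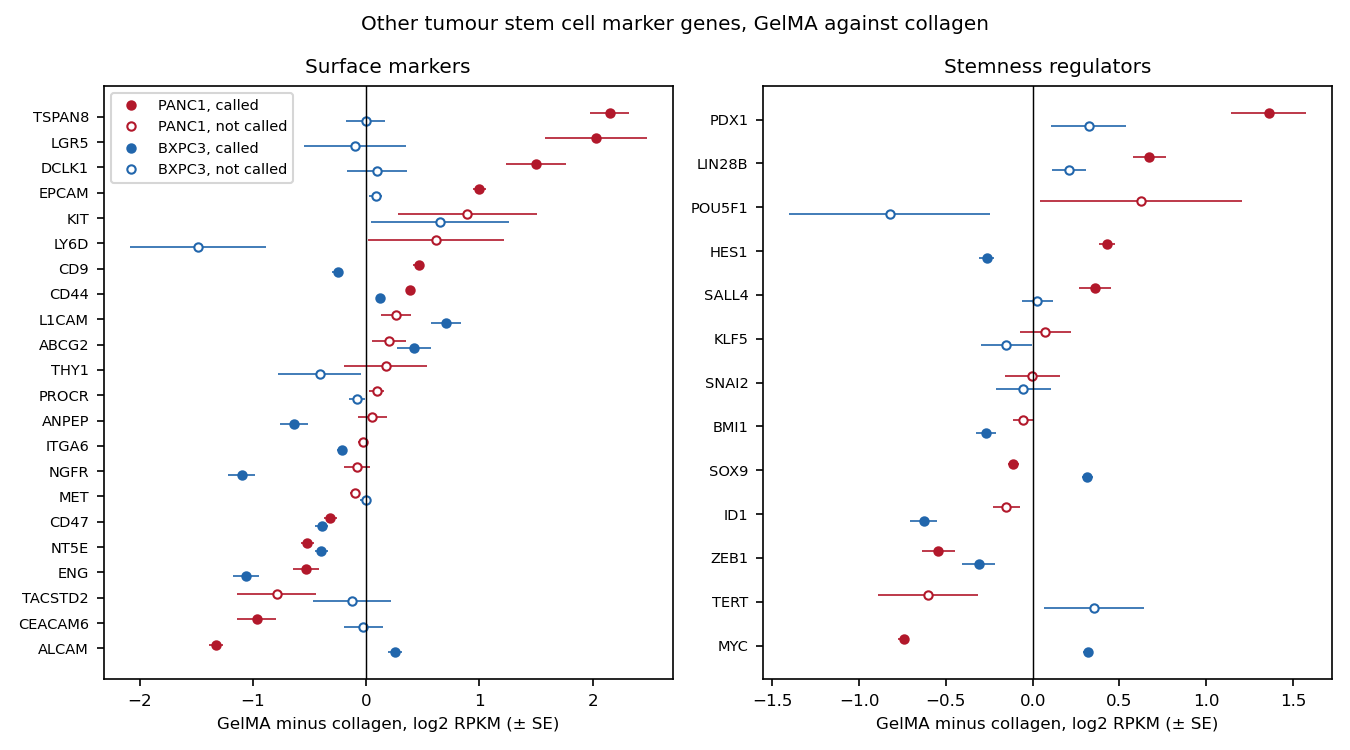
GelMA minus collagen in log2 RPKM (x axis) for other tumour stem cell surface markers (left) and stemness regulators (right), PANC1 above BXPC3 for each gene; bars are SE and filled points were called. Genes are sorted by the PANC1 difference, from TSPAN8 (2.15) down to ALCAM (-1.33) and from PDX1 (1.36) down to MYC (-0.74).

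Among other regulators of stemness, 13 of 18 were tested. In PANC1 4 rose and 3 fell, where 27.7% of all genes rose and 27.4% fell. In BXPC3 2 rose and 4 fell, where 19.4% of all genes rose and 16.7% fell. PDX1, the transcription factor of the embryonic pancreas, rose by 1.36 ± 0.22 log2 in PANC1 and LIN28B, an RNA-binding repressor of let-7 microRNAs, by 0.67 ± 0.10. MYC, a growth-promoting transcription factor, fell by 0.74 ± 0.03 log2 in PANC1 and rose by 0.32 ± 0.03 in BXPC3. ZEB1, a repressor of epithelial genes, gave -0.54 ± 0.09 in PANC1 and -0.31 ± 0.09 in BXPC3. SOX9, a ductal progenitor factor, rose by 0.31 ± 0.03 in BXPC3, where ID1, an inhibitor of helix-loop-helix factors, gave -0.63 ± 0.08.

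The aldehyde dehydrogenases, the family behind the enzyme activity used to sort stem cells, were called in both directions. Of 19 genes, the 2 members included, 8 rose and 6 fell in PANC1, where 27.7% of all genes rose and 27.4% fell. In BXPC3 3 rose and 2 fell (1 and 3 after centring on housekeeping genes), where 19.4% of all genes rose and 16.7% fell. The medians of the 19 were 0.10 log2 in PANC1 and 0.06 in BXPC3. In PANC1 the largest rises were those of ALDH1A3 and of ALDH1A2 (1.28 ± 0.35), and the lowest values those of ALDH1A1 and ALDH1L1 (-2.10 ± 0.35), a folate enzyme. ALDH1A1, ALDH1L1, ALDH3B2 and ALDH8A1, all among the 6 that fell, lay under 1 RPKM in every PANC1 library. There a difference depends on the unknown offset. These genes passed the minimum level only through BXPC3, so their place in that count carries no support. BXPC3 showed its largest rises in the mitochondrial ALDH1B1 (0.48 ± 0.07) and ALDH2 (0.32 ± 0.09), the second not called after centring (adjusted p = 0.179). Both rose by more in PANC1, ALDH1B1 by 0.97 ± 0.07 and ALDH2 by 1.14 ± 0.09. ALDH7A1 (-0.32 ± 0.07) and ALDH3B1 (-0.34 ± 0.06) fell in BXPC3.

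Retinoic acid, the product of the ALDH1A enzymes, acts through nuclear receptors. In the retinoid pathway 16 genes were tested, of which 7 rose and 6 fell in PANC1, where 27.7% of all genes rose and 27.4% fell. In BXPC3 3 rose and 2 fell (2 and 7 after centring), where 19.4% of all genes rose and 16.7% fell. RBP4, the secreted carrier of retinol, rose by 2.42 ± 0.26 log2 in PANC1 and by 1.05 ± 0.26 in BXPC3. CRABP1, which binds retinoic acid in the cytoplasm, rose by 1.82 ± 0.18 in PANC1, while CRABP2, which carries it to the nucleus, gave -0.53 ± 0.08. CRABP2 averaged 7.97 log2 RPKM in 7.5% GelMA, 9.24 in 5% GelMA and 9.14 in collagen, so only the 7.5% mean lay below collagen (7.5% against 5%, -1.27 ± 0.10, limma adjusted p = 3.54e-05). RARA, a retinoic acid receptor, held 4.50 and 4.46 log2 RPKM in PANC1 in 7.5% GelMA, 4.96 and 5.04 in 5% GelMA, and 5.83 and 5.83 in collagen. Its difference of -1.09 ± 0.05 (limma adjusted p = 1.44e-07) had no overlap between the gels. In BXPC3 the receptors RXRA (-0.35 ± 0.04) and RARG (-0.31 ± 0.04) fell, and STRA6, a retinol transporter, rose by 0.61 ± 0.18, which was not called after centring (adjusted p = 0.0586). Each was called in the same direction in PANC1. There RXRA gave -0.44 ± 0.04, RARG -0.48 ± 0.04 and STRA6 0.66 ± 0.18. The STRA6 mean in PANC1 was 0.12 log2 RPKM in 7.5% GelMA, 1.4 in 5% GelMA and 0.10 in collagen.

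**Figure D4:**
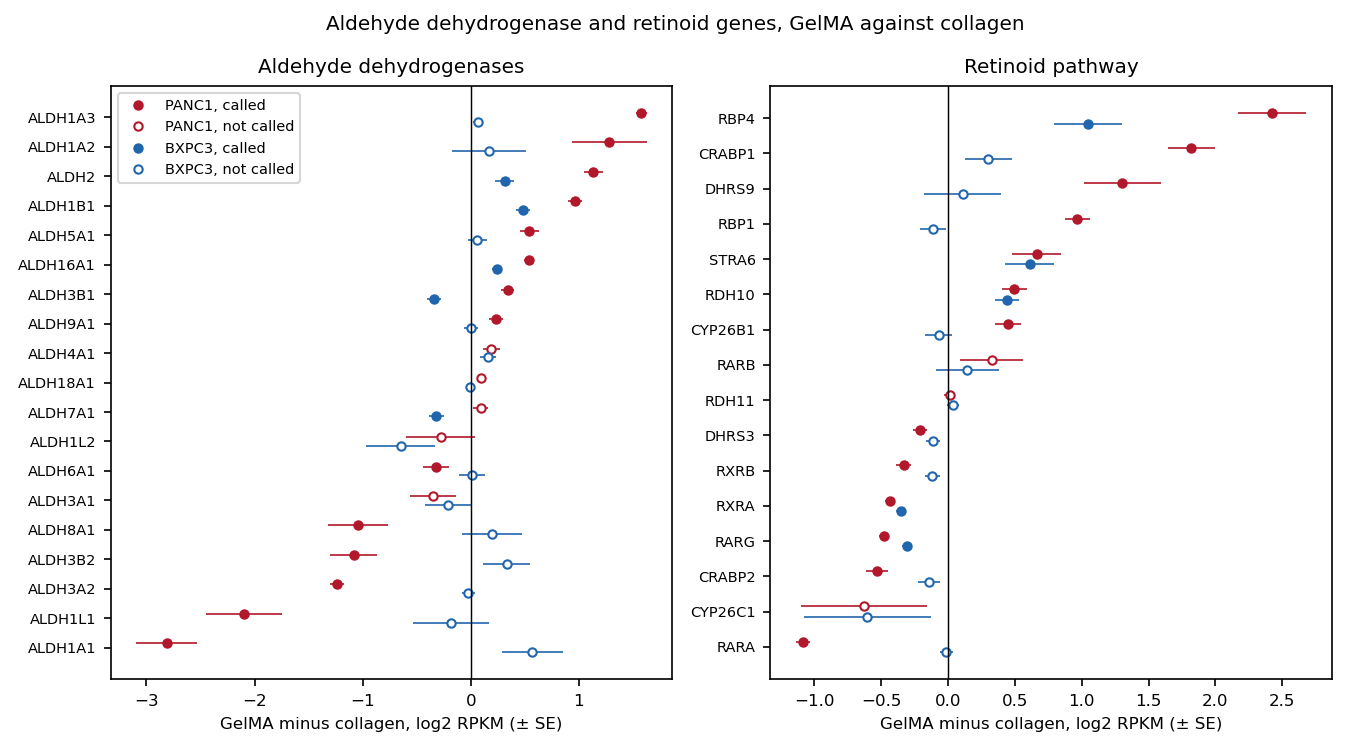
GelMA minus collagen in log2 RPKM (x axis) for the 19 aldehyde dehydrogenases (left) and the 16 tested retinoid genes (right), PANC1 above BXPC3 for each gene; bars are SE and filled points were called. In PANC1 the family runs from ALDH1A3 (1.58) to ALDH1A1 (-2.81) and the retinoid genes from RBP4 (2.42) to RARA (-1.09).

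Of 10 tested membrane partners and receptors of CD24, 1 rose and 4 fell in PANC1, where 27.7% of all genes rose and 27.4% fell. In BXPC3 3 rose and 5 fell (1 and 5 after centring), where 19.4% of all genes rose and 16.7% fell. LYN, a SRC family kinase found with CD24 in membrane rafts, was the gene that rose in PANC1, by 0.59 ± 0.05 log2. CAV1, a raft scaffold, held 6.58 and 6.55 log2 RPKM in PANC1 in 7.5% GelMA, 7.18 and 7.21 in 5% GelMA, and 8.14 and 8.10 in collagen. Its difference was -1.23 ± 0.03 (limma adjusted p = 1.51e-09), with no overlap between the gels, and -0.37 ± 0.03 in BXPC3. FYN, another SRC family kinase, gave -0.67 ± 0.15 in PANC1. SRC itself fell in both lines, with -0.38 ± 0.03 in PANC1 and -0.36 ± 0.03 in BXPC3. LYN rose by 0.27 ± 0.05 in BXPC3, not called after centring (adjusted p = 0.0884).

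Genes around the other members gave smaller sets. Of 12 tested genes of the CXCR4 axis 3 rose and 5 fell in PANC1, where 27.7% of all genes rose and 27.4% fell. In BXPC3 2 rose and 5 fell (1 and 7 after centring), where 19.4% of all genes rose and 16.7% fell. RGS16, which shortens G protein signals, rose by 0.86 ± 0.17 log2 in PANC1 and fell by 1.46 ± 0.17 in BXPC3. ARRB1, an arrestin, rose by 0.51 ± 0.13 in PANC1 and 0.62 ± 0.13 in BXPC3. CD74, a receptor of the cytokine MIF, gave -0.44 ± 0.15 in PANC1 and -0.95 ± 0.15 in BXPC3. Its PANC1 means were 1.79 log2 RPKM in 7.5% GelMA, 2.94 in 5% GelMA and 2.80 in collagen, so only the 7.5% mean lay below collagen (7.5% against 5%, -1.16 ± 0.17, limma adjusted p = 0.00162). GNAI1, a G protein subunit, gave -0.88 ± 0.04 in PANC1 and -0.21 ± 0.04 in BXPC3. TLN1, the integrin activator talin, gave 0.13 ± 0.05 in BXPC3 and -0.02 after centring.

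Among the partners of PROM1, PROM2 and HDAC6 fell in both lines. PROM2, the second prominin, gave -0.62 ± 0.06 log2 in PANC1 and -0.43 ± 0.06 in BXPC3. HDAC6, a tubulin deacetylase, gave -0.23 ± 0.04 in PANC1 and -0.25 ± 0.04 in BXPC3. Of the intermediate filament genes that pair with nestin 2 were tested. SYNM (synemin) rose by 1.34 ± 0.05 in PANC1 and by 0.18 ± 0.05 in BXPC3 (0.04 after centring). VIM (vimentin) ran from 11.65 to 11.93 log2 RPKM in PANC1 and from 5.01 to 5.78 in BXPC3 and was not called in either line.

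In the KLF family, KLF4 included, 3 of 14 rose and 5 fell in PANC1, where 27.7% of all genes rose and 27.4% fell. In BXPC3 5 rose and 3 fell (2 and 5 after centring), where 19.4% of all genes rose and 16.7% fell. KLF6, an injury-response factor, rose by 0.30 ± 0.04 log2 in PANC1 and 0.80 ± 0.04 in BXPC3, and KLF14 by 0.67 ± 0.24 and 0.97 ± 0.24 in the same order. KLF9, a hormone-responsive factor, gave -1.52 ± 0.15 and KLF3, a repressor, -0.50 ± 0.04 in PANC1. KLF10, a TGF-beta early gene, gave -0.58 ± 0.06 and KLF8 -0.47 ± 0.16 in BXPC3.

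In the SOX family, SOX2 included, 4 of 11 rose and 6 fell in PANC1, where 27.7% of all genes rose and 27.4% fell. In BXPC3 3 rose and 2 fell (3 and 4 after centring), where 19.4% of all genes rose and 16.7% fell. SOX4 held 8.99 and 8.86 log2 RPKM in PANC1 in 7.5% GelMA, 9.28 and 9.21 in 5% GelMA, and 8.14 and 8.11 in collagen. It rose by 0.96 ± 0.05 (limma adjusted p = 2.15e-07), opposite in direction to SOX2. SOX21 averaged 3.90 log2 RPKM in PANC1 in 7.5% GelMA, 5.21 in 5% GelMA and 3.93 in collagen, so the mean of both concentrations over collagen, 0.63 ± 0.13, came from 5% GelMA (7.5% against 5%, -1.32 ± 0.15, limma adjusted p = 0.000274). It rose by 0.80 ± 0.13 in BXPC3. SOX18, a vascular factor, gave -1.72 ± 0.25 in PANC1 and 1.95 ± 0.25 in BXPC3, where it ran from -2.36 to 0.61 log2 RPKM. SOX15 gave -0.64 ± 0.21 in PANC1, where it ran from -0.72 to 0.79 log2 RPKM. SOX7 (-0.89 ± 0.18) and SOX12 (-0.47 ± 0.05) fell in BXPC3.

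The marker lists themselves moved in part with the gels. Of 7 epithelial markers 5 rose and 1 fell in PANC1, where 27.7% of all genes rose and 27.4% fell. In BXPC3 3 rose and 1 fell (1 and 2 after centring), where 19.4% of all genes rose and 16.7% fell. Besides EPCAM, KRT7 rose by 0.78 ± 0.05 log2 in PANC1, KRT8 and KRT18 rose by 0.49 ± 0.08 and 0.26 ± 0.06 in BXPC3 (KRT18 not after centring), and MUC1 gave -0.61 ± 0.13 in PANC1 and -0.55 ± 0.13 in BXPC3. Of 4 immune markers tested 1 was called, ITGAM with 1.28 ± 0.15 in PANC1, and of 2 endothelial markers 1, PECAM1 with 0.83 ± 0.25 in PANC1 at under 1 RPKM. Of 3 fibroblast and stellate markers COL1A1 (1.66 ± 0.06) and PDGFRA (1.34 ± 0.20) rose in PANC1, while in BXPC3 COL1A1 gave 0.20 ± 0.06 (0.05 after centring) and ACTA2 -0.62 ± 0.21. Housekeeping genes rose in 6 of 10 cases in PANC1 and 5 of 10 in BXPC3 (3 and 2 after centring), by 0.37 ± 0.04 at most for PSMB4 in PANC1 and 0.32 ± 0.03 for VCP in BXPC3.

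Genes whose profile lay nearest to each member were found by the root mean square difference of log2 RPKM, each gene centred on its own mean, over the 12 libraries and all 15794 genes tested. Nearest to CD24 were ENSG00000230882 (0.25 log2), CGNL1 (0.30), a cell junction protein, and LINC02701 (0.33), which were higher in GelMA than in collagen in PANC1 by 2.38 to 2.78 log2. Nearest to ALDH1A3 were FGD4 (0.19), FMO5 (0.20) and MYZAP (0.20), and nearest to ALDH1A1 were PADI3 (0.54), MME (0.55) and CYP4F3 (0.56). SMARCA4 (0.12), SKP2 (0.13) and NRARP (0.14) lay nearest to SOX2, and B4GALT5 (0.12), PML (0.13) and STAT2 (0.13) to KLF4. NES lay nearest to CGREF1 (0.10), ZFP69B (0.19) and SEC14L4 (0.20). For CXCR4 the nearest were FOXC2-AS1 (0.38), RN7SL3 (0.48) and LRRC3 (0.49), and for PROM1 SMIM45 (0.52), ENSG00000254595 (0.54) and HESX1 (0.55). The last 2 members and ALDH1A1 were matched with the largest remaining distance. Such likeness across 12 libraries that share gels, lines and normalization is a description only.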

How the data were processed

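Messenger RNA was measured in 12 libraries, 2 in each of 6 groups taken from the labels. An RNeasy kit and poly-A capture were used, per the labels' protocols. HISAT2 2.1.0, HTSeq and GRCh38 are named in the submitters' processing notes, without roles or settings. The deposited values were log2 RPKM for 16299 genes, with 0 columns unmapped. No source used here gives the offset, annotation, strand setting or gene filter. Sorted values of the libraries were equal within 0.05 log2 for 13758 ranks, so they were taken as quantile normalized, a step read from the values that removes any shift common to most genes. Depth is unknown, and no counting interval can be given.

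Identifiers were paired with symbols through a gene name table (16250) and GENCODE 29 (49), which also gave positions. RefSeq promoters matched all 8 members. Genes reaching 1 RPKM in 2 or more libraries were fitted with limma 3.58.1 in R 4.3.3 (group means over 12 libraries, mean-variance trend, 6 residual and 3.89 prior degrees of freedom), with Benjamini-Hochberg adjustment over 15794 genes per comparison. The fit was tested on simulated data. Named genes are the members, the 3 nearest profiles of each member, and the 2 highest and 2 lowest called differences of each list in each line. Other genes named are CD44, VIM, ALDH8A1 and those said to be chosen later. The members and lists were chosen with earlier results of these data known. Alternatives were another log offset, other filters, centring on 10 housekeeping genes, no trend, single-line fits, a replicate block and leaving out each library. Same-numbered libraries did not deviate together (correlations of -0.048 to 0.077), so the numbers were not taken as pairs. One gene of the list of PROM1 partners is not reported here.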

Additional observations from a re-analysis of the deposited data

Results flagged for a closer look

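The effect of GelMA against collagen differed between PANC1 and BXPC3, by the interaction term of the limma fit, for 5 members. In that comparison 39.1% of all genes differed. The effect of 7.5% against 5% GelMA differed for 3 members, where 8.97% of all genes differed. As the log2 effect of GelMA in PANC1 minus that in BXPC3, the differences were 2.82 for CD24 (SE 0.09, adjusted p = 1.07e-07), 1.51 for ALDH1A3 (SE 0.07, adjusted p = 4.47e-07) and -3.38 for ALDH1A1 (SE 0.40, adjusted p = 0.00014). The ALDH1A1 value rests on PANC1 levels under 1 RPKM and was -0.93 with 1 added to each RPKM. They were -0.71 for SOX2 (SE 0.12, adjusted p = 0.00093) and -0.55 for NES (SE 0.07, adjusted p = 0.00026). For NES the effects had opposite signs, -0.22 in PANC1 and 0.33 in BXPC3. The PANC1 value came from 5% GelMA, at -0.46 against collagen, while 7.5% GelMA gave 0.01.

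For the concentration of GelMA, the same difference between the lines was 0.63 for CD24 (SE 0.11, adjusted p = 0.0067), 0.89 for ALDH1A3 (SE 0.08, adjusted p = 0.00035) and -0.58 for SOX2 (SE 0.13, adjusted p = 0.0246). The SOX2 difference was not called without the trend (adjusted p = 0.07) or without any of 5 of the GelMA libraries (adjusted p = 0.0547 to 0.0927). What sets the lines apart was not tested, since each line is present once.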

How the results depend on the processing

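Of 1232 recomputed values of single members, 1143 kept their direction and side of the threshold, 38 lost the call, 25 gained it and 26 changed sign; apart from the CD24 difference between the lines, those that changed sign were uncalled. The cause of each change was not tested. Of 7 members, those called in BXPC3 in GelMA against collagen numbered 1 after centring on housekeeping genes and 1 without the trend, against 2, and 1 to 2 on leaving out a library. For 5% GelMA they numbered 0 after centring and 1 without the trend, against 2, and 0 to 1 on leaving out a library. For 7.5% GelMA they numbered 2 with 1 added to the RPKM, 2 after centring and 2 with the line alone, against 1, and 1 to 2 on leaving out a library. In PANC1 leaving out a library gave 3 to 6 called between the concentrations and 4 to 6 in GelMA against collagen.

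After centring, BXPC3 differences changed sign for ALDH1A3 (-0.083), KLF4 (-0.145) and SOX2 (-0.042) in GelMA, for ALDH1A3 (-0.06) and SOX2 (-0.11) in 5% GelMA, and for CD24 (-0.032) and ALDH1A3 (-0.107) in 7.5% GelMA, each against collagen. In PANC1 NES in 7.5% GelMA against collagen became -0.043, and CD24 in PANC1 against BXPC3 over all gels became -0.17. With 1 added to the RPKM the difference between the lines became -0.32 for CXCR4 in GelMA and 0.11 for ALDH1A1 in concentration, and the ALDH1A1 difference between the lines in GelMA shrank to -0.93.

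On leaving out a library, signs changed in BXPC3 for KLF4 in GelMA (-0.066 to 0.075), SOX2 in 5% GelMA (-0.14 to 0.19) and ALDH1A3 in 7.5% GelMA (-0.004 to 0.114) against collagen. Between concentrations in BXPC3 they changed for ALDH1A3 (-0.084 to 0.042) and CXCR4 (-0.77 to 0.55). In PANC1 they changed for KLF4 (-0.022 to 0.165) and NES (-0.037 to 0.054) in 7.5% GelMA against collagen, and between the lines for CXCR4 in GelMA (-0.69 to 1.04) and KLF4 in concentration (-0.124 to 0.038).

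With the replicate number as a block, the NES difference between the lines in concentration (0.28) was called (adjusted p = 0.0316, against 0.0695), so 4 members differed in place of 3, and no other member's call changed. The block rests on shared numbers alone. Depth is unknown, and values under 1 RPKM depend on an unknown offset. Among the members these were PROM1, ALDH1A1 in PANC1 and most of CXCR4 in BXPC3. Among other genes named from the lists, ALDH1L1, ALDH3A1, ALDH3B2, ALDH8A1, CEACAM6, PDGFRA and PECAM1 in PANC1 and RBP4 and KLF14 in BXPC3 lay there. Some libraries lay there for SOX15, ALDH1A2, PDX1, STRA6 and TSPAN8 in PANC1 and for SOX18, ENG, L1CAM and ABCG2 in BXPC3. With 2 libraries a group, a lone remaining library is assumed to vary like the other groups.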

Other observations

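Among the aldehyde dehydrogenases, 7 of 19 were higher and 2 lower in 7.5% than in 5% GelMA in PANC1, where 18.7% of all genes were called. ALDH3A1, ALDH1A2 and ALDH3B2 were chosen here after their values were seen. ALDH3A1 and ALDH1A2 had the largest upward steps, and ALDH3B2 had the largest downward one, at -1.99 (limma adjusted p = 0.000571). ALDH3A1 averaged -1.52 log2 RPKM in 7.5% GelMA, -3.53 in 5% GelMA and -2.17 in collagen, so that 7.5% exceeded 5% by 2.01 ± 0.25 (SE, limma adjusted p = 0.000487), while GelMA and collagen differed by -0.35 ± 0.21 (limma adjusted p = 0.19). ALDH1A2 averaged 0.24, -1.21 and -1.77 log2 RPKM in the same order of gels, a step of 1.45 ± 0.40 between the concentrations (limma adjusted p = 0.0309). ALDH3B2 averaged -3.85, -1.86 and -1.77 log2 RPKM in that order. All 3 genes thus lay near or under 1 RPKM in PANC1, and ALDH3A1 and ALDH3B2 passed the minimum level only through BXPC3. So did ALDH1A1, the other gene lower in 7.5% than in 5% GelMA. In BXPC3 ALDH3A1 averaged 7.53 in 7.5% GelMA, 7.82 in 5% GelMA and 7.89 in collagen.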
